A study of Mus musculus with 7 samples.

Results

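Complex I of the respiratory chain was followed here through every probe set that carried exactly 1 gene symbol starting with Nduf. There were 88 such probe sets of the 45101 on the array, and they stood for 44 of the 18193 genes tested. Of these genes, 6 were core subunits (16 probe sets), 30 were other subunits (62 probe sets) and 8 were assembly factors named Ndufaf (10 probe sets). Another 10 probe sets named an Nduf gene together with a further gene and were left out, among them all those of the subunits Ndufs6 and Ndufa11. The 7 subunits encoded by mitochondrial DNA were not analysed here.

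Quadriceps femoris muscle was taken from 3 mice that overexpressed a mutant form of Twinkle and from 4 wild-type mice, with 1 single-colour Affymetrix array for each. Twinkle is a helicase of mitochondria, and it opens their DNA for copying. The mutant mice were 24, 24 and 21 months old (replicates 1 to 3) and the wild-type mice 26, 24, 21 and 23 months (replicates 1 to 4). The labels call the arrays biological replicates, and they give neither the promoter that drives the transgene nor the mutation it carries. The free-text descriptions of the samples name cerebellum, whereas titles, source and tissue name muscle. In a rough estimate of level, the brightest class (8 to 16 on the log2 scale) held each of the 10 muscle fibre markers and 1 of the 10 measured cerebellum markers, of which 4 more lay between 4 and 8 and 5 between 2 and 4. The bright cerebellum marker was Pvalb, which was also listed here as a marker of fast muscle fibres.

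Complex I takes electrons from NADH and passes them through a flavin and a chain of iron-sulfur clusters to ubiquinone, while its membrane arm pumps protons. Its core subunits carry out this chemistry and are shared with bacteria, the accessory subunits surround and stabilise them, and assembly factors join the modules but leave the finished enzyme. Some of the core lies in the membrane and is encoded by mitochondrial DNA, the molecule that Twinkle copies, and loss of complex I activity is a known feature of muscle disease with deleted or depleted mitochondrial DNA. The comparison asked whether the nuclear genes of the complex differed in transcript level between mutant and wild-type muscle.

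Every value below is as deposited, on a scale read as log2 from the spacing of the numbers because no source used here states the log base. Each is set against the median array of its probe set. The values show differences between arrays and hold no level, so a value of 0.00 marks the median array. In whole muscle, fewer cells of a type and less RNA per cell cannot be told apart.

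With limma, 0 of the 18193 genes had an adjusted p under 0.05 (0%, lowest adjusted p = 1.00). An unadjusted p under 0.05 was found for 261 genes (1.43%), and none of the 44 complex I genes was among them. The groups did not overlap in 165 genes that were higher in mutant muscle (0.907%) and in 217 that were lower (1.19%), again with no complex I gene. Twnk, the gene of Twinkle, measured -0.15, 0.44 and 0.00 in mutant and 0.34, -0.13, -0.14 and 0.15 in wild-type muscle. The groups overlapped, and the difference was 0.04 ± 0.18 (SE, limma adjusted p = 1.00). No source used here says whether this probe set reads the transgene. The stress hormone gene Fgf21 (2.03, 0.93 and 0.83 against -0.43, -0.40, 0.00 and -0.05) and the one-carbon enzyme gene Mthfd2 (2.00, 0.94 and 0.46 against -0.14, -0.58, -0.35 and -0.46) did separate the groups on the same arrays.

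Several array-wide values bear on what follows. The first principal component of the genes outside complex I held 51.9% of the variance. Mutant 2, wild type 1 and wild type 4 had weights below 0 on it (-0.51, -0.44 and -0.22). They are called the 3 arrays that stood apart. The name marks only the sign of the weight, since the weight farthest from 0 was that of wild type 3, in the other set. The other 4 had weights from 0.07 (mutant 3) to 0.59 (wild type 3). Over the same genes, with each gene's mean removed, the 3 arrays correlated with each other at 0.23 to 0.40. The other 4 did so at -0.06 to 0.32, and arrays of different sets correlated at -0.63 to -0.24. The split and the correlations come from the same values, so the correlations do not test the split. The 12 slow-fibre markers averaged 0.35, -0.16 and -0.19 in mutant and -2.65, -2.00, 0.77 and 0.45 in wild-type muscle, lowest in wild type 1 and wild type 2. The array of wild type 3 had the highest mean of the 6 adipocyte (0.98), 10 leukocyte (0.59) and 7 fibroblast markers (0.93), the lowest muscle fibre mean (-0.45) and a Gapdh 5′ minus 3′ control difference of -0.55, against -0.04 to 0.09 on the others. The 18S control probe sets averaged 3.19 on the array of mutant 1, which was also highest for Fgf21 and Mthfd2, against -0.77 to 0.56 on the others. The part of these differences in the complex I values was not tested. The class medians, Ndufa4, Ndufa5 and the genes with the largest differences are also given without the 3 arrays.

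The core subunits of the peripheral arm were at nearly the same level in mutant and wild-type muscle. Over the 6 genes the differences between groups ran from -0.07 to 0.10 with a median of 0.02, and all 6 intervals lay within 0.5 log2 units of 0. Ndufs1, the large iron-sulfur subunit of the NADH-oxidising module, measured 0.04, 0.09 and 0.00 in mutant and -0.15, -0.01, -0.11 and 0.03 in wild-type muscle. Mutant 3 lay below wild type 4, so the groups overlapped. Its difference of 0.10 ± 0.08 (SE) had the smallest p of the core (95% interval -0.09 to 0.30, limma adjusted p = 1.00).

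Ndufv1, which binds NADH and the flavin, measured 0.04, 0.04 and -0.06 in mutant and -0.08, 0.07, -0.16 and 0.19 in wild-type muscle. Both ends of its range were wild-type arrays, and the difference was -0.00 ± 0.11 (95% interval -0.25 to 0.25). Ndufv2, its iron-sulfur partner, measured -0.07, 0.13 and -0.12 against 0.09, -0.01, -0.07 and 0.20, a difference of -0.07 ± 0.11. Here the 3 highest arrays were wild type 4, mutant 2 and wild type 1, the arrays that stood apart.

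Among the subunits next to the ubiquinone site, Ndufs3 measured 0.00, -0.22 and 0.00 in mutant and -0.25, 0.13, 0.06 and -0.10 in wild-type muscle, a difference of -0.03 ± 0.12. Ndufs7, which holds the last iron-sulfur cluster before ubiquinone, measured -0.02, -0.08 and -0.00 against -0.29, 0.04, -0.02 and -0.05 (difference 0.04 ± 0.10). Ndufs8, another iron-sulfur protein, measured 0.18, -0.22 and -0.00 against -0.35, 0.03, 0.17 and -0.17 (difference 0.07 ± 0.15). In all 3 genes wild type 1 was the lowest array, and mutant 2 lay below both other mutant arrays.

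Ndufv2 and the accessory subunit Ndufs5 are shown by promoter, because both hold the same motif in the 250 bases before the gene start and yet lay on opposite sides of the array pattern described below. The motif GCGCNNGCGC is the one bound by NRF1, a factor known to drive nuclear genes of the respiratory chain. Capitals mark its matches, which overlap each other in Ndufv2. Sequences are RefSeq's for GRCm38.p6, in gene direction, at chr17:66101560-66101809 (minus strand) and chr4:123718187-123718436 (minus strand).
Ndufv2: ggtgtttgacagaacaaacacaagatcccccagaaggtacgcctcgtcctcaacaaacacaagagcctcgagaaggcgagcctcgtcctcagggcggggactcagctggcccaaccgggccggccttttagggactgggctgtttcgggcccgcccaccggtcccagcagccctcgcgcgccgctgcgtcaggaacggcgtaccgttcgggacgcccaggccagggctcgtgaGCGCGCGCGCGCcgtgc
Ndufs5: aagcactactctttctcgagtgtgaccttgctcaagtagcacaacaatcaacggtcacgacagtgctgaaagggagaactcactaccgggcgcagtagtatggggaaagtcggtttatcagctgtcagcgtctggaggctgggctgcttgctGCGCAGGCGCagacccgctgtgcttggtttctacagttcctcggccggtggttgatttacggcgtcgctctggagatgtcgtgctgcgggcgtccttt

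Of the 44 genes, 39 had a promoter in the RefSeq table. The motif, searched on both strands of the upstream 250 bases, was present in 7 of them (17.9%) against 5.64% of 27025 genes. The 7 were Ndufa5, Ndufa8, Ndufab1, Ndufaf4, Ndufb4, Ndufs5 and Ndufv2. A match to CCGGAAG, the motif of ETS factors, on either strand was present in 5 (12.8%) against 7.83% of all genes, in Ndufaf1, Ndufaf8, Ndufb6, Ndufb7 and Ndufs3. Both motifs were chosen with the array values known, and a match describes the letters only.

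No accessory subunit passed the test between the groups, and 22 of the 30 intervals lay within 0.5 log2 units of 0. Of the 30, 17 had a positive and 13 a negative difference, with a median of 0.01 and a range of -0.11 (Ndufc1) to 0.33 (Ndufa4). The smallest p belonged to Ndufa5, a subunit of the peripheral arm, which measured -0.03, 0.18 and 0.14 in mutant and 0.00, -0.20, -0.21 and 0.09 in wild-type muscle. Mutant 1 lay within the wild-type range, and the difference was 0.17 ± 0.11 (SE, 95% interval -0.08 to 0.43, limma adjusted p = 1.00). Without the 3 arrays that stood apart the same difference was 0.26, and with those arrays as a block it was 0.21 ± 0.09 (limma adjusted p = 0.887, 0 of 18193 genes called, 0%). Under this block 909 genes (5%) had an unadjusted p under 0.05, and 2 of them were complex I genes.

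Those 2 were Ndufa5 and Ndufa4. Ndufb10, on the membrane arm, measured 0.09, 0.13 and 0.00 in mutant and -0.07, -0.18, -0.13 and 0.15 in wild-type muscle, a difference of 0.13 ± 0.10. Only wild type 4 reached above the mutant arrays. Ndufb11, a membrane subunit whose human gene is linked to X-chromosomal complex I deficiency, measured 0.05, -0.12 and 0.04 against -0.34, -0.06, 0.04 and -0.19 (difference 0.13 ± 0.11).

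Ndufa10, which sits on the matrix face of the membrane arm, had the largest difference after Ndufa4, at 0.24 ± 0.22. Its values were 0.31, -0.26 and 0.13 in mutant and -0.64, 0.20, 0.00 and -0.27 in wild-type muscle. The low arrays were again wild type 1, wild type 4 and mutant 2.

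At the other end, Ndufc1, a small membrane subunit, measured -0.10, -0.15 and 0.05 in mutant and -0.22, 0.08, 0.25 and 0.06 in wild-type muscle, a difference of -0.11 ± 0.12. Ndufb6, also in the membrane arm, measured -0.09, -0.17 and 0.02 against -0.20, 0.09, 0.09 and 0.08, a difference of -0.09 ± 0.11. Ndufb5, of the same arm, measured -0.02, -0.05 and 0.02 against 0.03, -0.07, 0.08 and 0.14 (difference -0.06 ± 0.08). The groups overlapped in all 3 genes.

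Without the 3 arrays that stood apart, the difference among the other 4 arrays was 0.08 for Ndufs1, 0.20 for Ndufb10, 0.05 for Ndufb11 and 0.12 for Ndufa10. It was -0.19 for Ndufc1, -0.12 for Ndufb6 and -0.00 for Ndufb5. Among these 7 genes the sign was thus that of all 7 arrays.

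Ndufs4, whose loss causes the childhood encephalopathy Leigh syndrome, measured -0.13, -0.29 and -0.08 in mutant and -0.31, -0.14, 0.15 and -0.14 in wild-type muscle, a difference of -0.05 ± 0.12 (95% interval -0.34 to 0.23). Ndufa3 of the membrane arm measured 0.03, -0.52 and 0.01 against -0.48, 0.00, 0.16 and -0.31, a difference of -0.00 ± 0.20. Ndufc2, of the membrane arm too, measured -0.03, -0.18 and 0.02 against -0.37, 0.02, 0.16 and -0.15 (difference 0.02 ± 0.14). In these genes the spread within each group exceeded the difference between the groups. Ndufab1, the acyl carrier protein that also serves mitochondrial fatty acid and iron-sulfur cluster synthesis, stayed between -0.03 and 0.04 on all 7 arrays in its brightest probe set (difference -0.02 ± 0.07).

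**Figure D1:**
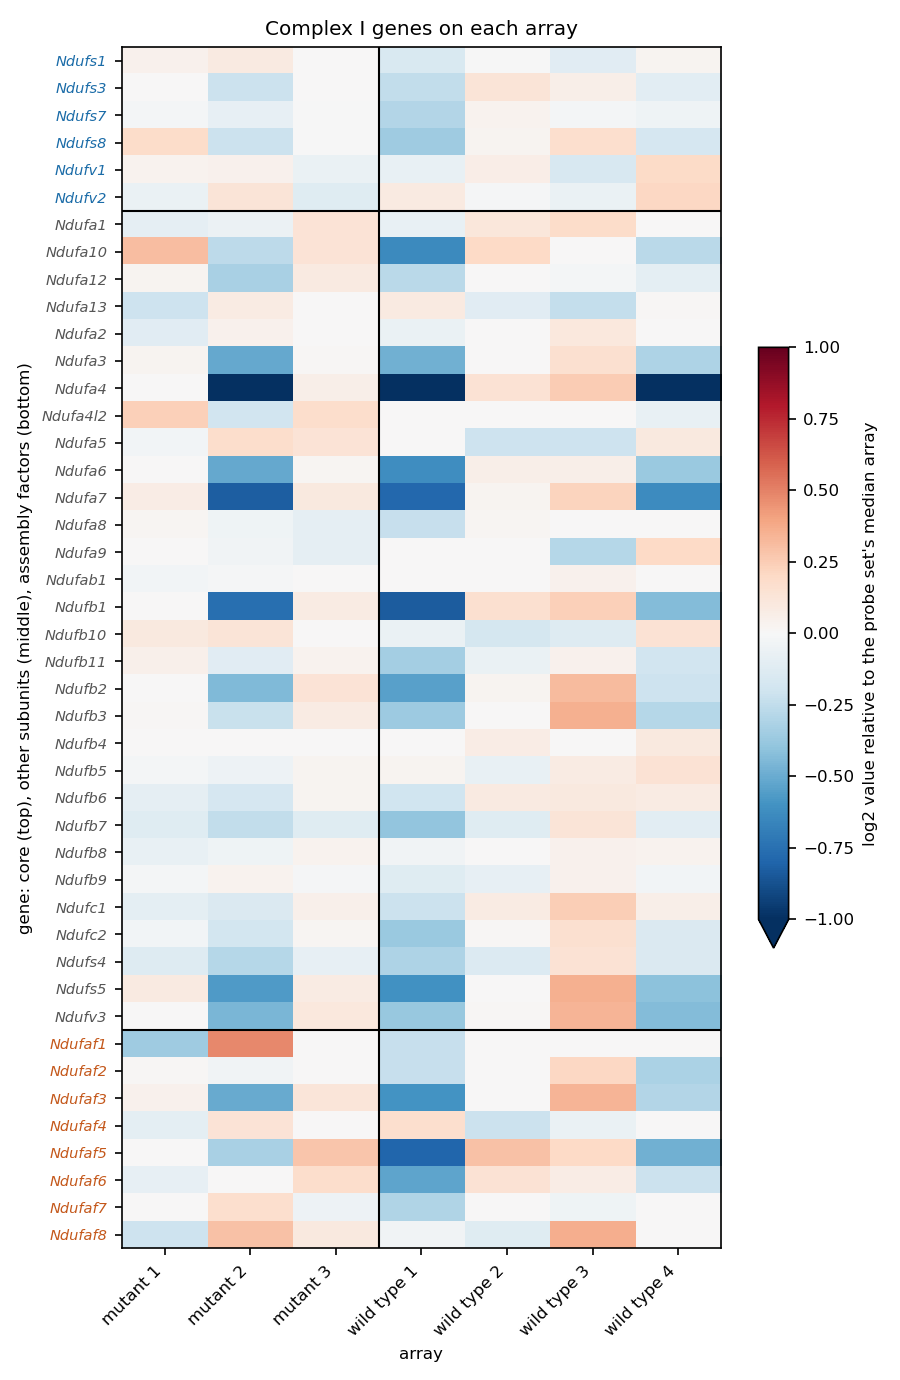
Values of the 44 complex I genes (rows) on the 7 arrays (columns), on the log2 scale with the median array of each probe set at 0. Blue marks low and red high values, and values below -1 share the darkest blue. The columns of mutant 2, wild type 1 and wild type 4 hold most of the blue, with Ndufa4 at -3.29, -3.00 and -3.02, and no such change is seen at the vertical line between mutant and wild-type arrays.

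Ndufa4 stood out from every other complex I gene. It was named as a complex I subunit and is now placed in complex IV, cytochrome c oxidase. It measured 0.00, -3.29 and 0.06 in mutant and -3.00, 0.15, 0.25 and -3.02 in wild-type muscle. The 4 high arrays lay between 0.00 and 0.25, and a gap of 3.00 log2 units parted the lowest of them from the highest of the 3 low arrays.

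No other gene of the 18193 had a gap as wide between these 3 low arrays and the other 4: the next gene had 2.05, and the next complex I gene, Ndufa7, had 0.66. Since both genotypes held high and low arrays, the difference between groups was 0.33 ± 1.18 (SE, 95% interval -2.43 to 3.08). Among the 4 high arrays alone it was -0.17, among the 3 low arrays -0.29, and with the array sets as a block -0.22 ± 0.08 (limma adjusted p = 0.887). Only 1 probe set measured this gene, so a second reading on the same RNA was not analysed here. Ndufa4l2, a hypoxia-responsive relative of Ndufa4, had no such gap between the array sets. Its values were 0.24, -0.19 and 0.17 in mutant and 0.00, 0.00, 0.00 and -0.08 in wild-type muscle, a difference of 0.09 ± 0.12. Mutant 2 and wild type 4 were the lowest arrays here too, and wild type 1 lay level with wild type 2 and wild type 3.

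All 8 assembly factors had a positive difference, from 0.01 to 0.18, with a median of 0.09, where 46.5% of all genes had a positive difference. None had an unadjusted p under 0.05, and each interval included 0. The uniform sign holds for gene values, which use only the brightest class. Ndufaf4 and Ndufaf8 each had a second probe set in a lower class, and these differed by -0.13 and -0.12. The other factors had 1 probe set each. Ndufaf1, a partner of Acad9 and Ecsit in building the membrane arm, measured -0.35, 0.48 and 0.00 in mutant and -0.23, 0.00, 0.00 and 0.00 in wild-type muscle. The 2 ends of the range were both mutant arrays, and the difference was 0.10 ± 0.19. Ndufaf2, a relative of the subunit Ndufa12 that helps attach the NADH-oxidising module, measured 0.01, -0.03 and 0.00 against -0.23, 0.00, 0.20 and -0.32, a difference of 0.08 ± 0.13.

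Ndufaf3 and Ndufaf4 act together on the early ubiquinone module, and they ran in opposite directions across the arrays. Ndufaf3 measured 0.04, -0.51 and 0.12 in mutant and -0.60, 0.00, 0.34 and -0.30 in wild-type muscle (difference 0.03 ± 0.25). Ndufaf4 measured -0.09, 0.14 and 0.00 against 0.17, -0.22, -0.07 and 0.00 (difference 0.04 ± 0.11). Mutant 2 and wild type 1, the lowest arrays for Ndufaf3, were the highest for Ndufaf4.

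Ndufaf5, an enzyme that hydroxylates Ndufs7, had the largest difference of the class. It measured 0.00, -0.33 and 0.28 in mutant and -0.79, 0.29, 0.20 and -0.48 in wild-type muscle, a difference of 0.18 ± 0.29. Its partner Ndufaf8 measured -0.20, 0.29 and 0.10 against -0.04, -0.12, 0.36 and 0.00, a difference of 0.01 ± 0.16. Ndufaf6, another factor for the early ubiquinone module, measured -0.08, 0.00 and 0.18 against -0.53, 0.15, 0.08 and -0.22 (difference 0.16 ± 0.17).

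Ndufaf7, a methyltransferase of the mitochondrial matrix, measured 0.00, 0.17 and -0.05 in mutant and -0.30, 0.00, -0.04 and 0.00 in wild-type muscle, a difference of 0.13 ± 0.11 with the smallest p of the class (limma adjusted p = 1.00). For Ndufaf7 and Ndufaf6 the lowest array was wild type 1. Without it the median of the 8 factors was 0.03. Among the 4 arrays that did not stand apart the median was -0.09 with 1 positive value of 8, and among the other 3 it was 0.31 with 7 of 8. The sign of the median thus differed between the array sets, and this difference was not tested.

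Assembly factors without an Nduf name did not share the uniform sign of the Ndufaf gene values. Of 14 measured, 8 had a positive and 6 a negative difference, with a median of 0.01, and none had an unadjusted p under 0.05. Acad9, a flavoprotein of the membrane arm assembly complex, measured 0.26, 0.00 and 0.29 in mutant and -0.30, 0.17, -0.17 and -0.23 in wild-type muscle. Wild type 2 lay above mutant 2, and the difference was 0.32 ± 0.14 (limma adjusted p = 1.00). Dmac2, a factor for the distal membrane arm, differed by 0.16 ± 0.13. Without the 3 arrays that stood apart, Acad9 differed by 0.28 and Dmac2 by 0.06.

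The supply of flavin and iron-sulfur clusters was followed by 13 of 15 listed genes, 8 with a positive and 5 with a negative difference (median 0.00). The cluster carriers Nfu1 (0.14 ± 0.12) and Glrx5 (-0.14 ± 0.16) had the smallest p of the list and pointed opposite ways. Acad9 reached a larger difference than any member except Ndufa4, and its groups still overlapped.

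**Figure D2:**
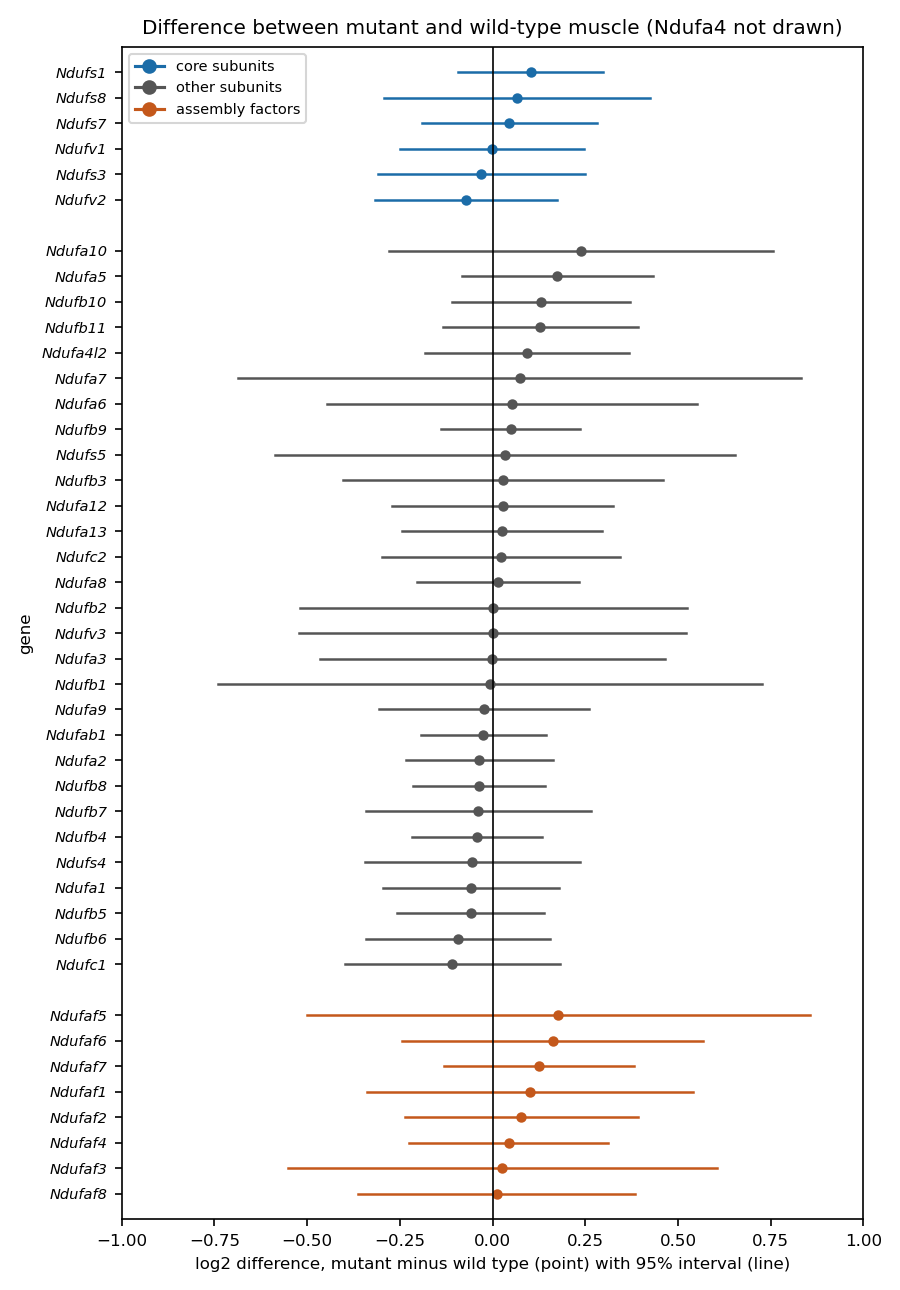
Difference between 3 mutant and 4 wild-type arrays (log2 scale, point) with its 95% limma interval (line) for 43 complex I genes, by class. Ndufa4, at 0.33 with an interval of -2.43 to 3.08, is not drawn. Every interval crosses 0, and the 8 assembly factors all lie to the right of it by 0.01 to 0.18.

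Over the 44 genes the median difference was 0.03, with 28 positive (63.6%), beside a median of -0.01 over all genes. Leaving out 1 array moved this median to between -0.05 (without wild type 1) and 0.10 (without wild type 3), and it was below 0 also without mutant 1, mutant 3 or wild type 4. The positive count was 20 of 44 with the array sets as a block and 12 among the 4 arrays that did not stand apart. Complex I genes are bright, and 36 of the 44 lay in the class of 8 to 16. The 3221 genes of that class had a median difference of 0.02, with 57.5% positive. The 95% interval lay within 0.5 log2 units of 0 for 32 of the 44 genes and within 1 for 43, all but Ndufa4. The mean over the 44 genes was -0.06 ± 0.13 (SD, n = 3) over the mutant arrays and -0.10 ± 0.19 (SD, n = 4) over the wild-type arrays. Both means include Ndufa4 with its low values.

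Single probe sets gave the same picture. Of the 88, 53 had a positive difference (60.2%, against 48.3% of all probe sets), and the median was 0.02. No complex I probe set had an unadjusted p under 0.05, against 627 of 34945 probe sets (1.79%), and 0 of the 34945 had an adjusted p under 0.05 (0%). In 5 genes the probe sets differed in sign by more than 0.2. They were Ndufa3 (-0.23 to 0.02), Ndufab1 (-0.02 to 0.23), Ndufc2 (-0.43 to 0.15), Ndufs4 (-0.18 to 0.07) and Ndufs8 (-0.17 to 0.17).

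No complex I gene separated the genotypes, and few of all genes did (0.907% higher and 1.19% lower in mutant muscle). The 3 arrays that stood apart were picked by the largest component of the other genes on these same arrays. That this split parts more genes than genotype does was thus built in. In 20 of the 44 genes (45.5%) mutant 2, wild type 1 and wild type 4 were the 3 lowest arrays, against 2011 of all 18193 genes (11.1%) and 17.1% of the genes in the brightest class. They were the 3 highest arrays in 2 genes, Ndufa13 and Ndufv2, against 1790 of all genes (9.84%) and 19.0% of the genes in the brightest class. The 20 comprised 3 of 6 core subunits, 14 of 30 other subunits and 3 of 8 assembly factors.

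Ndufa7, a subunit of the peripheral arm, had the widest gap after Ndufa4. It measured 0.07, -0.82 and 0.10 in mutant and -0.79, 0.03, 0.23 and -0.63 in wild-type muscle. Its difference between groups was 0.07 ± 0.33. Ndufb1, a small subunit of the membrane arm, measured 0.00, -0.75 and 0.08 against -0.83, 0.16, 0.24 and -0.43, a difference of -0.01 ± 0.31. In both genes the standard error was wide because each genotype held high and low arrays.

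Ndufv3, an accessory protein of the NADH-oxidising module, measured 0.00, -0.46 and 0.11 in mutant and -0.38, 0.01, 0.34 and -0.44 in wild-type muscle (difference 0.00 ± 0.22). Ndufb2 of the membrane arm measured 0.00, -0.44 and 0.13 against -0.54, 0.03, 0.31 and -0.21 (difference 0.00 ± 0.22). Ndufb3, also of the membrane arm, measured 0.01, -0.22 and 0.08 against -0.36, 0.00, 0.36 and -0.28 (difference 0.03 ± 0.18). In all 3 genes the highest array was wild type 3. Ndufa12, the subunit related to Ndufaf2, measured 0.03, -0.32 and 0.09 against -0.27, 0.00, -0.02 and -0.10 (difference 0.03 ± 0.13).

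Ndufs5, on the intermembrane-space face, measured 0.09, -0.56 and 0.08 in mutant and -0.61, 0.00, 0.36 and -0.41 in wild-type muscle. The difference between groups was 0.03 ± 0.27. Ndufa6, a partner of the acyl carrier protein, measured 0.00, -0.51 and 0.02 against -0.62, 0.06, 0.06 and -0.37. Ndufa13, which also has a described role in cell death, ran the other way at -0.20, 0.09 and 0.00 against 0.09, -0.12, -0.24 and 0.01. Low values on the 3 arrays were thus found in members of both arms of the enzyme. These genes and Ndufv3, Ndufb2, Ndufb3 and Ndufa12 were chosen after their values were seen.

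Of the remaining members, Ndufa1, Ndufa2, Ndufa8, Ndufb4, Ndufb8 and Ndufb9 stayed between -0.23 and 0.18 on all 7 arrays, and their group differences ran from -0.06 to 0.05. Ndufa9, which lies beside the ubiquinone site, measured 0.00, -0.04 and -0.09 in mutant and 0.00, 0.01, -0.29 and 0.20 in wild-type muscle, a difference of -0.02 ± 0.12. Its extremes were wild type 3 and wild type 4.

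Probe sets of 1 gene did not always agree on these arrays. Of the 88 probe sets, 35 (39.8%) were lowest on the 3 arrays, against 3143 of 34945 (8.99%), and 9 (10.2%) were highest on them, against 3500 (10%). The remaining 44 were neither. Of 16 genes with several probe sets in their brightest class, 10 had means over the 3 arrays on both sides of 0, and in 3 all such probe sets were lowest there. In 4 genes, Ndufb7, Ndufc2, Ndufs4 and Ndufv1, some probe set was lowest and another highest on the 3 arrays.

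Ndufb7, on the intermembrane-space face, showed this most plainly. One probe set measured -0.71, -0.94 and -0.41 in mutant 2, wild type 1 and wild type 4, and between 0.00 and 0.26 on the other 4 arrays. The other measured 0.22, 0.15 and 0.20 on the same 3 arrays and between -0.26 and 0.00 on the rest. Both lay in the brightest class, and the gene's value is their mean.

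The brightest pair of Ndufs4 split in the same way, with -0.64, -0.74 and -0.51 in one probe set and 0.07, 0.12 and 0.22 in the other on mutant 2, wild type 1 and wild type 4. In Ndufs7 one probe set measured -0.41, -0.58 and -0.28 there and the other 0.25, 0.00 and 0.19. In Ndufb11 one of 3 probe sets measured -0.59, -0.81 and -0.63, and the other 2 stayed between -0.12 and 0.14. By contrast, all 4 bright probe sets of Ndufa7 lay between -0.86 and -0.45 on these arrays, and all were lowest there.

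Probe set names carry a suffix for what they match. Of 46 complex I probe sets with the plain suffix, 21 were lowest and 1 highest on the 3 arrays. Of 21 with the suffix for several transcripts of 1 gene, 5 were lowest and 3 highest, and of the 7 and 14 with the 2 suffixes for probes that can match further genes, 2 and 7 were lowest and 2 and 3 highest. The same counts by suffix were not taken over all probe sets, so whether this split is particular to complex I was not tested. Which transcript ends or other features set the probe sets apart was not tested either.

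**Figure D3:**
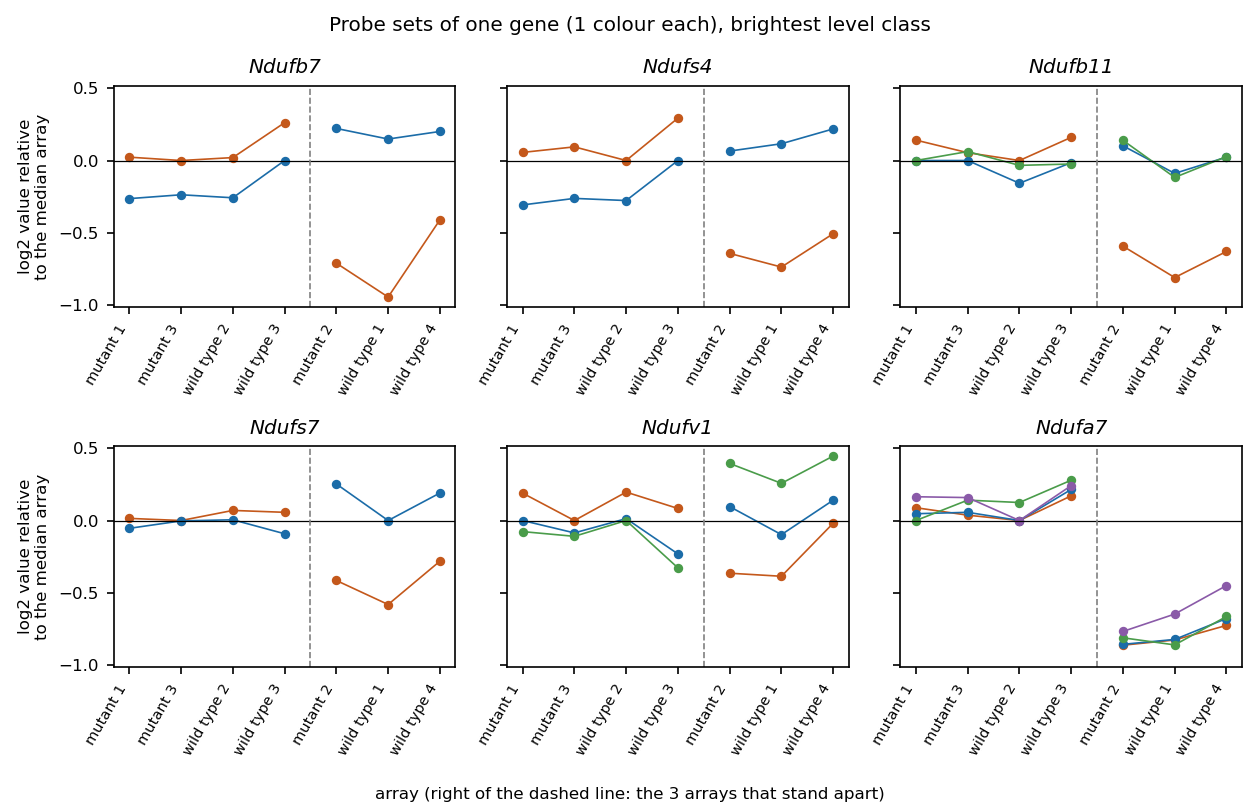
Probe sets in the brightest level class of 6 complex I genes (1 colour for each probe set) on the 7 arrays, as log2 values relative to the median array. Right of the dashed line lie mutant 2, wild type 1 and wild type 4. In Ndufb7 one probe set measured -0.71, -0.94 and -0.41 there and the other 0.22, 0.15 and 0.20, whereas all 4 probe sets of Ndufa7 lay between -0.86 and -0.45.

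The group difference was also taken within the array sets. Among mutant 1, mutant 3, wild type 2 and wild type 3 the median difference of the 44 genes was -0.05, with 12 positive. Among the 3 arrays that stood apart, with only 1 mutant array, it was -0.01, with 21 positive. With the sets as a block it was -0.03, with 20 positive. Core subunits had a median of -0.02, 0.01 and 0.01 in these 3 readings, other subunits -0.05, -0.04 and -0.04, and assembly factors -0.09, 0.31 and 0.07. Leaving out wild type 1 and wild type 2, the arrays low in slow-fibre genes, gave -0.03 over the 44 genes.

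The other respiratory complexes had small group differences too, and the means of their lists were lowest on the 3 arrays that stood apart. The median difference was 0.03 for the 4 genes of complex II, 0.02 for the 9 of complex III, -0.01 for the 12 measured of 13 listed in complex IV and 0.01 for the 15 of complex V, with no gene at an unadjusted p under 0.05. The smallest p of each list belonged to Sdhb (0.08 ± 0.10), Uqcrq (0.10 ± 0.31), Cox5a (-0.10 ± 0.08) and Atp5e (-0.13 ± 0.13), and next came Sdha (0.05 ± 0.09), Uqcrc1 (0.05 ± 0.23), Cox8a (-0.26 ± 0.54) and Atp5g3 (-0.08 ± 0.08). Mutant 2, wild type 1 and wild type 4 were the 3 lowest arrays for 2, 7, 9 and 6 genes of complexes II to V. For complex V the mean on wild type 4 was only -0.02, and the median there, 0.09, was the highest of all arrays.

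The mean of complex III was -0.43, -0.53 and -0.28 on mutant 2, wild type 1 and wild type 4 and between 0.02 and 0.15 on the other arrays. The mean of the core complex I subunits was -0.04, -0.17 and 0.02 on the same 3 arrays, and that of the other subunits -0.31, -0.36 and -0.21. Without Ndufa4 and Ndufa4l2 the mean of the other subunits was -0.21, -0.28 and -0.11 there. Cox8b, a muscle form of a complex IV subunit, had the profile nearest to Ndufa4 among these lists, with 0.00, -1.61 and 0.08 in mutant and -1.41, 0.09, 0.21 and -1.18 in wild-type muscle. It was chosen after its values were seen.

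**Figure D4:**
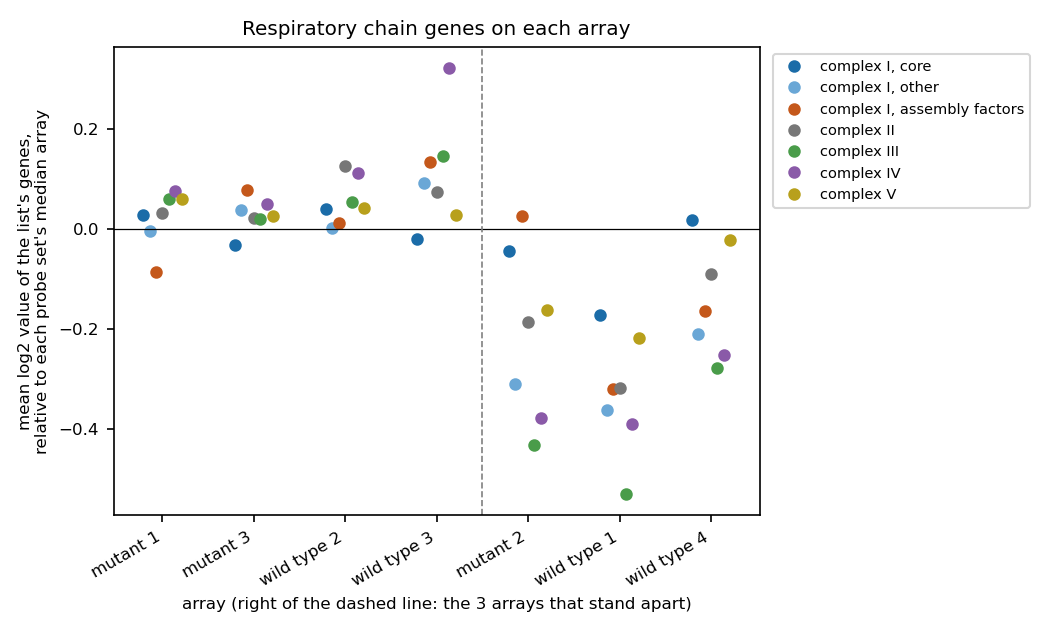
Mean log2 value of the genes of each list on each array, with the median array of each probe set at 0, for the 3 complex I classes and complexes II to V. Right of the dashed line lie mutant 2, wild type 1 and wild type 4. Complex III is at -0.43, -0.53 and -0.28 there, the core subunits of complex I at -0.04, -0.17 and 0.02. The mean of the other subunits of complex I includes Ndufa4.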

How the data were processed

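The deposited table gives values for 45101 probe sets on 7 arrays, taken as log2 values. The log base is inferred from the spacing of the numbers, and every difference depends on it. As the values show, the authors centred every probe set on the array with its middle value, which is exactly 0. GCOS 4.0 is named in the submitters' processing notes, and the summary method, array scaling and centring step are not given in the sources used here. Labels state Trizol extraction and biotin-labelled cRNA. Array number limits the precision.

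Because centring removed levels, a level class (2 to 4, 4 to 8 or 8 to 16 on the log2 scale) was estimated from the step between neighbouring single-precision values. For 18 of the 88 complex I probe sets the most likely class had a probability under 0.9. Gene names come from the platform annotation, updated by Entrez identifier to RefSeq symbols (34754 of 34958 with 1 symbol matched), which changed 0 complex I symbols. Probe sets with several symbols (932), unnamed ones (9211) and 64 controls were left out. A gene's value is the mean of its probe sets in its brightest class. The files name no genome build, so coordinates are given only for the RefSeq promoters.

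Genes and, separately, 34945 probe sets were compared in R 4.3.3 by limma 3.58.1 (lmFit, eBayes, no covariate, two-sided, Benjamini-Hochberg over all, threshold 0.05). Errors of differences are limma standard errors, and p-values measure the spread between these arrays. The fit was also run on simulated data with independent noise for each gene and array. Those data lack the shared array differences described above, so the run does not show how the fit handles them. Core means Ndufs1, Ndufs3, Ndufs7, Ndufs8, Ndufv1 and Ndufv2. The rule for named genes took all core subunits and assembly factors, the 8 other subunits with the smallest p, the 3 with the widest spread, genes whose probe sets differ in sign by more than 0.2, and 2 genes for each related list. Members, lists and rules were chosen with earlier results of these data known. Alternatives changed the probe set rule, variance trend, normalization, centring, level filter, age covariate, replicate block and arrays included. The replicate numbers come from the titles. Same-numbered arrays of the 2 genotypes correlated at -0.46, -0.28 and 0.13 after group means were removed. The samples were treated as unpaired, but with only 3 such pairs these correlations cannot exclude a pairing.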

Additional observations from a re-analysis of the deposited data

Results flagged for a closer look

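In 60 genes described here, among them the 44 of complex I, and in the 3 class means, the 4 wild-type arrays were searched for 1 array far from the rest (Dixon's 95% criterion). It was met 7 times of 63, where chance gives about 1 in 20. In 5 genes the distant array was wild type 1, at -0.23 for Ndufaf1, -0.30 for Ndufaf7, -0.20 for Ndufb6, -0.23 for Ndufa8 and -0.26 for Sdhb. The others were wild type 4 at -0.076 for Ndufa4l2 and wild type 3 at 0.045 for Ndufab1. In Ndufa4l2, Ndufa8, Ndufab1, Ndufaf1, Ndufaf7 and Sdhb the remaining wild-type arrays lay at or near the probe set's median of 0, so a small deviation met the criterion. The cause was not tested.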

How the results depend on the processing

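No alternative called a gene or a probe set: each gave 0 at an adjusted p under 0.05, with 98 to 909 genes at an unadjusted p under 0.05 beside 261 in the reported fit. The replicate block, fitted although the samples were treated as unpaired, gave 0 called genes, 98 unadjusted, and a median difference of -0.00 over the 44 complex I genes. Leaving out 1 array at a time gave medians of -0.05 to 0.10 for all complex I genes, -0.03 to 0.06 for core subunits, -0.07 to 0.09 for other subunits and 0.03 to 0.16 for assembly factors. Of 86 recomputed medians, 85 moved by less than the spread between arrays. The exception was the assembly factors among the 3 arrays that stood apart, at 0.31 (added after seeing the data). The sign of the median over the 44 genes, 0.03 as reported, was thus not fixed: it was -0.05 without wild type 1 and 0.10 without wild type 3. For 29 named complex I genes, 89 of 550 settings changed the sign of a difference and none brought an adjusted p below 0.887. Centring on brighter genes moved no array. The array set block, the array subsets and the suffix rule were chosen after seeing the data. The 3 and 4 arrays limit what can be seen, and for Ndufa4 differences up to 3.08 log2 units lie within the interval.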
